A study of Mus musculus with 4 samples.

Results

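Ly6c2-positive CD8 cells lacking Ccl5 are CD8 T cells that carried messenger RNA of Ly6c2, which encodes a form of the surface antigen Ly6C, and none of the chemokine Ccl5. A cell was taken when its barcode had at least 300 genes and at most 10% mitochondrial counts, at least 2 unique molecular identifiers (UMIs, each 1 counted transcript) of Cd8a and Cd8b1 together, at least 1 of Ly6c2, and none of Cd4, Cd79a, Ccl5, Mki67, Ifit3, Fosb or Pdcd1. This gave 4003 cells of the 48578 kept in the whole series. They were set against 9312 cells that met every other condition but had no UMI of Ly6c2 (Ly6c2-negative cells), and against 893 that had Ly6c2 and at least 1 UMI of Ccl5 (Ccl5-positive cells). The cells came from draining lymph nodes of mice bearing MC38-OVA tumours; MC38 is a colon adenocarcinoma line of mice, here with the model antigen ovalbumin. Flow cytometry was used to sort the live T cells, which went into droplet libraries made with a 5' kit. KO-DOX mice carried the PD-L1 (Cd274) knockout that the study places in dendritic cells, and received doxorubicin, an anthracycline that damages DNA. KO-CTRL mice had the same knockout and the control treatment. WT-DOX mice had the control genotype and doxorubicin, and WT-CTRL mice the control genotype and the control treatment. Each group was 1 library. The Cre driver, the number of mice behind a library and the time of collection are not stated in the labels.

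Ly6C is a small glycolipid-anchored protein of the Ly6 family. In mice it is found on monocytes, plasmacytoid dendritic cells and part of the T cells, and on CD8 T cells it is used as a surface marker of memory and is raised by interferon. Ccl5 is a chemokine that antigen-experienced CD8 cells make in quantity, so a gate on its absence leaves out most effector and memory cells. Naive CD8 cells recirculate through lymph nodes with the help of Ccr7 and S1pr1, and depend on interleukin-7 signals through Il7r.

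The 4 libraries held 10372 to 12959 barcodes and 37754389 to 47081849 UMIs. KO-DOX gave 900 Ly6c2-positive cells, KO-CTRL 932, WT-DOX 1039 and WT-CTRL 1132. Their counts summed to 3724749 to 4758613 UMIs per library, with a median depth of 3883 to 3964 UMIs per cell. The Ly6c2-negative cells were shallower, at a median of 3180 to 3290 UMIs. Any pair of libraries had 175 to 271 barcodes in common, and 233 of the 4003 Ly6c2-positive cells had a barcode that was also found in another library. Each group is 1 library, so levels were compared between treatments and genotypes with no test, and intervals cover counting error only. Levels are given as CPM, the UMIs of a gene per 1000000 UMIs summed over the cells named. Cd274 had 63.3 to 76.0 CPM in the Ly6c2-positive cells, which checks nothing, since the knockout was placed in dendritic cells and not in the T cells sorted here.

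The cells had transcripts of T cells and of the naive state, and the gate itself left out cells with a UMI of Mki67, Fosb or Pdcd1. Cd3e, a signalling subunit of the T cell receptor complex, had 593 to 736 CPM in the 4 libraries, and Lef1, a transcription factor of naive T cells, had 709 to 796 CPM. Cd44, an adhesion receptor high on antigen-experienced T cells, was detected in 5.12% to 6.55% of Ly6c2-positive cells, against 18.2% to 27.5% of Ccl5-positive cells.

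Lists of markers of other cells differed in their levels. Igkc of B and plasma cells, Ncr1 and Fcer1g of natural killer cells, Siglech of plasmacytoid dendritic cells and Zbtb16 of innate-like T cells were among the genes with no UMI in the Ly6c2-positive cells of any library, while other genes of the same lists were present. A UMI of some B or plasma cell marker was found in 406 of 900 Ly6c2-positive cells in KO-DOX, 417 of 932 in KO-CTRL, 484 of 1039 in WT-DOX and 489 of 1132 in WT-CTRL. Among Ly6c2-negative cells of the same libraries it was 868 of 1979, 935 of 2309, 1213 of 2649 and 1033 of 2375, which are shares of similar size. The summed level of 6 natural killer markers was 2.64 to 6.98 CPM in Ly6c2-positive cells, against 1.22 to 2.07 CPM in Ly6c2-negative cells and 36.7 to 186 CPM in Ccl5-positive cells. For 8 gamma delta and innate-like T cell markers the sum was 1.84 to 5.82 CPM in Ly6c2-positive cells and 2.88 to 4.74 CPM in Ly6c2-negative cells. Both sums were low in every library of the Ly6c2-positive cells. The 7 helper and regulatory CD4 markers summed to 188 to 198 CPM in Ly6c2-positive cells and 202 to 234 CPM in Ly6c2-negative cells, and the 9 B and plasma cell markers to 164 to 179 CPM against 184 to 218 CPM. The 9 myeloid markers summed to 50 to 78.7 CPM in Ly6c2-positive cells and 54.8 to 63.0 CPM in Ly6c2-negative cells, and the 6 plasmacytoid dendritic markers to 181 to 206 CPM against 224 to 266 CPM. The plasmacytoid dendritic list holds Ccr9, Bst2 and Irf8, which CD8 T cells also express. The part of other cells in the results was not tested.

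Dapl1, Klrd1 and Ctsw had been chosen as markers with results of these data known, so their levels are a description with no test. Dapl1, which encodes death-associated protein-like 1, had 408, 389, 480 and 441 CPM in Ly6c2-positive cells of KO-DOX, KO-CTRL, WT-DOX and WT-CTRL, against 215, 196, 247 and 224 CPM in Ly6c2-negative cells. It was detected in 58.9% to 63.9% of Ly6c2-positive cells and 29.6% to 36.1% of Ly6c2-negative cells, so the libraries of both gates did not overlap. Ctsw, the protease cathepsin W of cytotoxic lymphocytes, had 234, 234, 269 and 226 CPM in Ly6c2-positive cells, against 162, 168, 161 and 165 CPM in Ly6c2-negative cells, again without overlap. Klrd1 encodes CD94, which pairs with NKG2 receptors, and separated the gates least. It had 187, 163, 163 and 176 CPM in Ly6c2-positive cells, against 149, 148, 156 and 160 CPM in Ly6c2-negative cells. With every cell thinned to 1500 UMIs, Klrd1 was expected in 21.3% to 24.1% of Ly6c2-positive cells and 19.6% to 20.9% of Ly6c2-negative cells. Dapl1 was expected in 37.5% to 43.1% of Ly6c2-positive cells and 19.0% to 23.3% of Ly6c2-negative cells at that depth. Dapl1 also had at least 1 UMI in 16.4% to 23.3% of Cd4-positive cells, so it did not mark CD8 cells alone. Most Ly6c2-positive cells lacked part of the set: 17.6% to 20.2% of them had a UMI of each of the 3 markers, against 6.57% to 7.37% of Ly6c2-negative cells, and 9.56% to 12.2% had none, against 26.7% to 32.0% of Ly6c2-negative cells.

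Ly6c2 lies beside Ly6c1, a close copy that encodes the other form of the antigen, so the gate depends on reads that tell the copies apart. Of 822 aligned bases of the transcripts Ly6c2-201 and Ly6c1-201, 802 (97.6%) were identical. Of the 90-base windows of Ly6c2-201, 18.3% occurred unchanged in the protein-coding transcripts of Ly6c1. How the authors counted such reads is not stated, so the split between the copies is uncertain. Both genes lie on the minus strand of chromosome 15, with promoter windows at chr15:75111922-75112221 for Ly6c2 and chr15:75048788-75049087 for Ly6c1 (GRCm38.p6). The windows, from RefSeq, run 5′ to 3′ from 250 bases before each start to 50 bases after it. They are shown because the copies, alike at their starts, were counted in different T cells. Of 266 aligned bases, 208 (78.2%) were identical, and capitals mark the longest shared run of 20 bases.
Ly6c2: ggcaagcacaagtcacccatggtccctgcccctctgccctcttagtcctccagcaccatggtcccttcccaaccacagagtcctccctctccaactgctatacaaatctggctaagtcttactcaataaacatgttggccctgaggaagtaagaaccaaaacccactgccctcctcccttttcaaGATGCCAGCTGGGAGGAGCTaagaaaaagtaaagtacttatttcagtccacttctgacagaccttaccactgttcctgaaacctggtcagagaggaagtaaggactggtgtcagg
Ly6c1: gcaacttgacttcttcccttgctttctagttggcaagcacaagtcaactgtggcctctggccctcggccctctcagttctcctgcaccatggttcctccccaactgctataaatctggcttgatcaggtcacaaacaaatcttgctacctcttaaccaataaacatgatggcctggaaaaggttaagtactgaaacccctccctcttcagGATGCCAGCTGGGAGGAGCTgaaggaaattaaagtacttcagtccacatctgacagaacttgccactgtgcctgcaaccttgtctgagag

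Ly6c1 was detected in 1.22%, 1.5%, 1.83% and 2.03% of the Ly6c2-positive cells of KO-DOX, KO-CTRL, WT-DOX and WT-CTRL, and in 16.4%, 20.5%, 18.0% and 17.2% of cells with Cd4 and without CD8 UMIs. Ly6c2 was split the other way. It was detected in 2.18%, 1.71%, 1.37% and 2.28% of the Cd4-positive cells, at a median depth of 2986 to 3185 UMIs. That share stands beside detection in CD8 cells as a comparison. Whether it is background, miscounted Ly6c1 reads or expression in these cells was not tested.

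Ly6c2-positive cells were close to 3 in 10 of the CD8 cells lacking Ccl5 in each library, and the share, which the gate itself defines, is a description. They made up 31.3% of these cells in KO-DOX (95% exact binomial interval 29.6% to 33.0%, 900 of 2879 cells), 28.8% in KO-CTRL (27.2% to 30.3%, 932 of 3241), 28.2% in WT-DOX (26.7% to 29.7%, 1039 of 3688) and 32.3% in WT-CTRL (30.7% to 33.9%, 1132 of 3507). KO-DOX and WT-CTRL had the higher shares, and KO-CTRL and WT-DOX the lower ones. The share in WT-DOX was 0.873 times that in WT-CTRL (95% interval 0.813 to 0.936), while the share in KO-DOX was 1.09 times that in KO-CTRL (1.01 to 1.17). The treated library was therefore the lower one of its pair in the control genotype and the higher one in the knockout, a difference that was not tested. Without barcodes found in more than 1 library the ratio of KO-DOX to KO-CTRL was 1.08 with an interval of 0.998 to 1.17, which holds 1. Between genotypes, the share in KO-DOX was 1.11 times that in WT-DOX (1.03 to 1.20), and the share in KO-CTRL was 0.891 times that in WT-CTRL (0.829 to 0.958). At a limit of 2 Ly6c2 UMIs this last ratio was 0.945 (0.862 to 1.04), which also holds 1. Thinning each cell to 1500 UMIs gave shares of 23%, 21.2%, 20.2% and 22.9% in KO-DOX, KO-CTRL, WT-DOX and WT-CTRL, in which WT-CTRL and KO-DOX again stood above the other libraries. The plot of shares by library shows these values with their intervals.

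**Figure D1:**
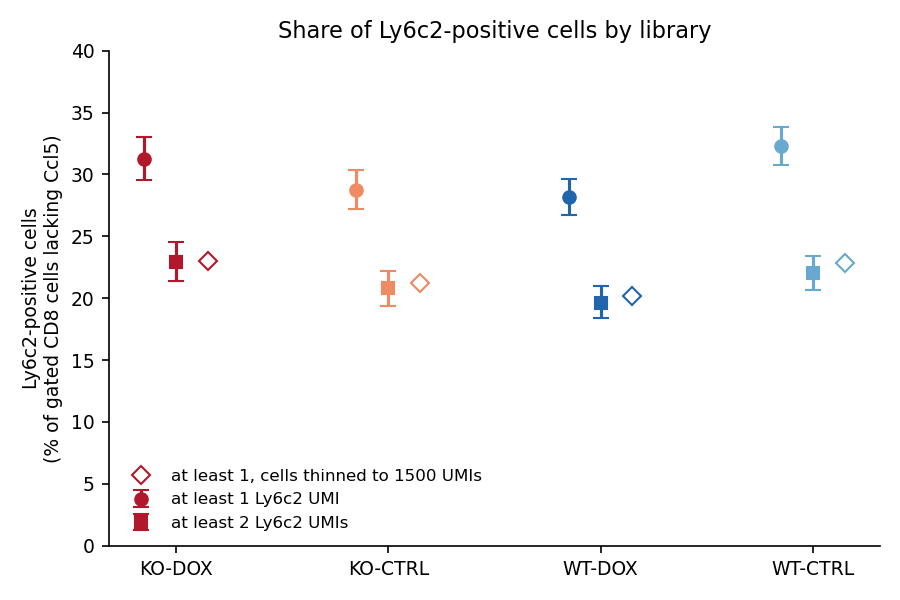
Share of Ly6c2-positive cells among CD8 cells lacking Ccl5 (percent, y axis) in each of the 4 libraries (x axis), as circles with exact 95% binomial intervals for at least 1 Ly6c2 UMI, squares for at least 2 UMIs and open diamonds for cells thinned to 1500 UMIs. KO-DOX (31.3%) and WT-CTRL (32.3%) lie above KO-CTRL (28.8%) and WT-DOX (28.2%).

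Ly6c2 itself had 1008, 1027, 1001 and 963 CPM in the Ly6c2-positive cells of KO-DOX, KO-CTRL, WT-DOX and WT-CTRL, so its level differed little between libraries. The median cell had 3 Ly6c2 UMIs in every library and the highest had 24 to 42, while 26.7% to 31.8% of the cells stood at the limit of exactly 1 UMI. Among Ccl5-positive cells the median was 6 or 7 UMIs and the level 1507 to 1874 CPM. Cells just outside the CD8 limit, with 1 UMI of Cd8a and Cd8b1 together, had 804 to 1063 CPM of Ly6c2, and cells just inside, with 2, had 915 to 1071 CPM. Cells just outside the Ccl5 limit, with 1 UMI of Ccl5, had 1226 to 1604 CPM, above the 963 to 1027 CPM of the Ly6c2-positive cells, which are those with 0.

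Cells with 6 or more Ly6c2 UMIs had the highest levels of Ctsw, Nkg7, Cxcr3 and Il2rb of any class in each library, and the lowest of the egress receptor S1pr1. Ctsw had 201, 197, 234 and 282 CPM in KO-DOX cells with 1, 2, 3 to 5 and at least 6 Ly6c2 UMIs, against 162 CPM in cells with 0. At 6 or more UMIs it reached 282, 353 and 286 CPM in KO-CTRL, WT-DOX and WT-CTRL, against 168, 161 and 165 CPM in cells with 0. Cxcr3, a chemokine receptor of type 1 effector and memory cells, had 20.8, 23.8, 18.9 and 31.5 CPM in the top class of KO-DOX, KO-CTRL, WT-DOX and WT-CTRL, against 5.62, 4.98, 2.92 and 4.52 CPM in cells with no Ly6c2. In cells with exactly 1 Ly6c2 UMI it was at 5.56, 1.09, 3.35 and 0 CPM, which rests on 5, 1, 4 and 0 UMIs. Nkg7, a granule protein of cytotoxic cells, had 805, 725, 750 and 671 CPM at 6 or more UMIs, against 537, 492, 518 and 464 CPM at 0. S1pr1 ran the other way, with 262, 269, 209 and 308 CPM at 6 or more UMIs, against 367, 376, 317 and 414 CPM at 0. Dapl1 had 347, 308, 462 and 376 CPM at 1 UMI and 430, 412, 490 and 545 CPM at 6 or more, against 215, 196, 247 and 224 CPM at 0. Klrd1 varied with no such order, at 181, 169, 165 and 157 CPM with 1 UMI and 207, 159, 174 and 213 CPM with 6 or more. The classes differ in depth, with a median of 3218 UMIs at 0 and 4420 at 6 or more in KO-DOX, and they have no test because the Ly6c2 count that forms them was part of the gate.

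**Figure D2:**
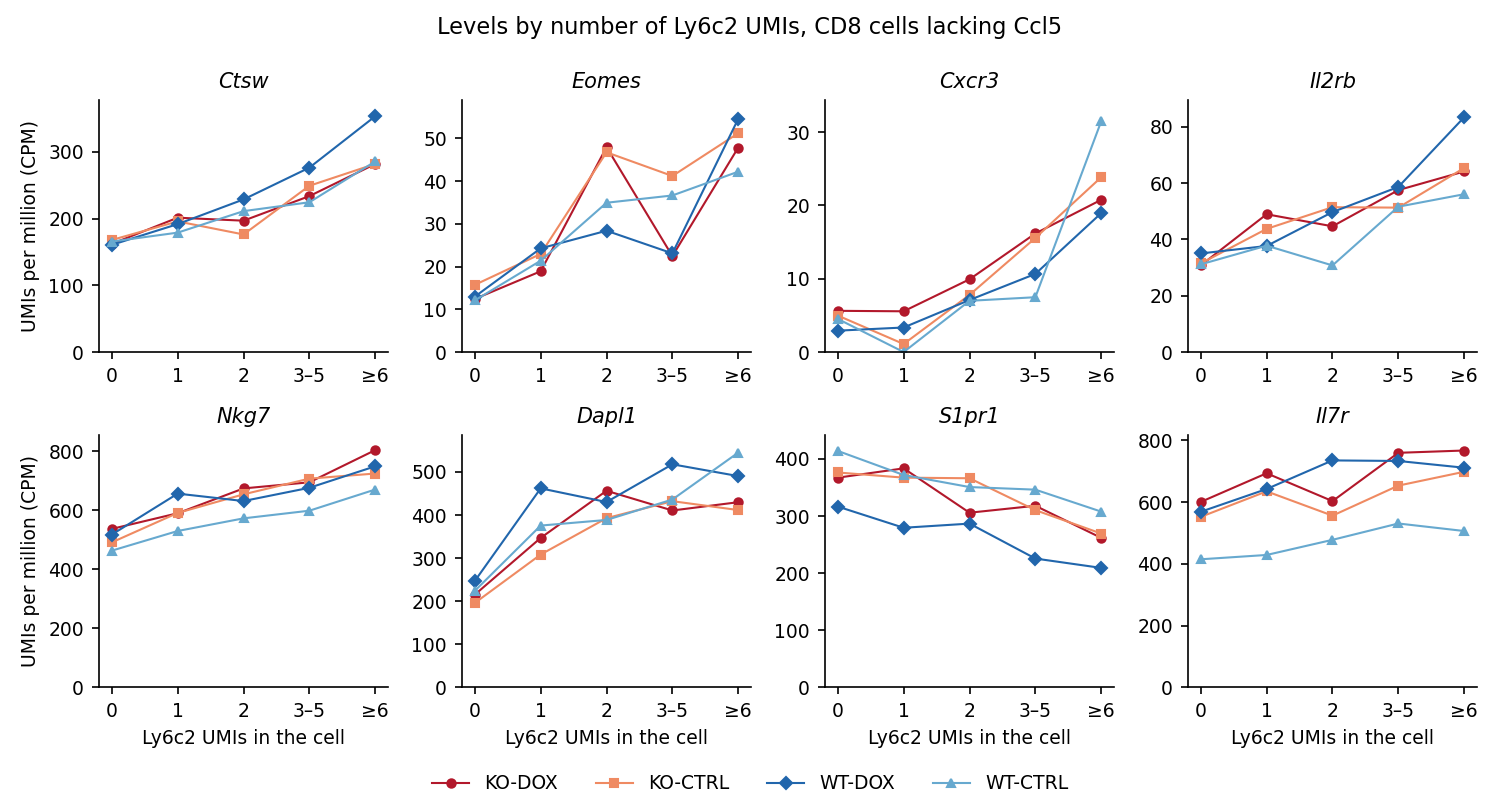
Level (CPM, y axis from 0) of 8 genes in cells grouped by their number of Ly6c2 UMIs (x axis), with 1 line for each library. Ctsw, Nkg7, Cxcr3 and Il2rb are highest at 6 or more UMIs and S1pr1 lowest, and Dapl1 is lowest at 0.

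Against Ly6c2-negative cells of the same libraries, Ly6c2-positive cells had more transcripts of the memory transcription factor Eomes and the memory receptors Il2rb and Cxcr3. They also had more of the enzyme Nmnat2, and fewer of the gut-homing receptor Ccr9 and the integrin Itgae. The UMIs of each gate were summed per library and compared with edgeR's quasi-likelihood test with library as a block. The p-values thus measure how the difference between the gates varied over the 4 libraries, which are of 4 different groups. Of 10189 genes tested, 1977 (19.4%) had an adjusted p under 0.05, 1135 (11.1%) higher and 842 (8.26%) lower in Ly6c2-positive cells. Folds are relative to the median gene: by library totals the median gene was 0.11 to 0.13 log2 units lower in Ly6c2-positive cells, and that scaling called 504 genes higher and 2866 lower. Drawing Ly6c2-negative cells of the same depth left 1412 calls, of which 1335 were among the 1977. Genes scarce in Ly6c2-negative cells, such as Tbx21, Il18rap and Gzmm, could enter the test only through the Ly6c2-positive cells. That fixed their direction, so their folds are a description.

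The memory genes stood out. Eomes, a T-box factor of memory CD8 cells, had 33.3, 40.7, 33.8 and 33.4 CPM in Ly6c2-positive cells of KO-DOX, KO-CTRL, WT-DOX and WT-CTRL, against 12.4, 15.7, 13.0 and 12.1 CPM in Ly6c2-negative cells. The gates did not overlap, and the log2 fold was 1.53 (SE 0.090, edgeR adjusted p = 7.9e-27). Its relative Tbx21 was scarce in both, with 2.95, 6.08, 4.83 and 4.83 CPM in Ly6c2-positive cells, against 1.18, 0.393, 0.972 and 0.977 CPM in Ly6c2-negative cells (log2 fold 2.51). Tbx21 entered the test only through the Ly6c2-positive cells, so this fold is a description. Il2rb, the receptor chain shared by interleukins 2 and 15, had 55.3, 53.7, 58.9 and 45.6 CPM in Ly6c2-positive cells, against 30.8, 31.5, 35.0 and 31.1 CPM in Ly6c2-negative cells (0.85, SE 0.068, edgeR adjusted p = 6.9e-19). Cxcr3 averaged 12.4 ± 1.51 CPM in Ly6c2-positive and 4.51 ± 1.15 CPM in Ly6c2-negative cells (SD, n = 4 libraries each), and Il18rap, a subunit of the interleukin-18 receptor, 5.88 ± 0.850 and 1.02 ± 0.483 CPM. Hopx, an atypical homeodomain protein, had 114, 108, 110 and 92.0 CPM in Ly6c2-positive cells, against 47.1, 48.7, 53.3 and 47.6 CPM in Ly6c2-negative cells (1.22, SE 0.053, edgeR adjusted p = 1.3e-35). Cd44 averaged 17.4 ± 2.67 CPM in Ly6c2-positive and 12.4 ± 1.30 CPM in Ly6c2-negative cells (0.60, edgeR adjusted p = 3.9e-05). In WT-CTRL the gates were close, at 13.7 and 13.1 CPM. The excess of Cd44 was not one of the whole gate. Cells with exactly 1 Ly6c2 UMI had 6.56 to 12.6 CPM, under the Ly6c2-negative cells in each library, which rests on 6 to 15 UMIs. Cells with 6 or more had 15.4 to 31.8 CPM, above the Ly6c2-negative cells in each library. Of 22 genes listed as memory and homeostatic, 17 were tested and 11 were called higher and 1 lower, or 11 higher and 2 lower by library totals, with a median log2 fold of 0.42, against -0.0046 over all genes tested. The 11 include Tbx21 and Il18rap, whose direction was fixed. The lower gene was Itga4, the integrin chain alpha 4, at 135 ± 7.38 CPM in Ly6c2-positive and 189 ± 14.0 CPM in Ly6c2-negative cells.

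Nmnat2 had the largest fold of the genes named by size, which the naming rule takes only where all 4 libraries have the same direction. Nmnat2, an enzyme of NAD synthesis, had 20.4, 26.2, 18.6 and 17.7 CPM in Ly6c2-positive cells of KO-DOX, KO-CTRL, WT-DOX and WT-CTRL, against 4.88, 7.21, 3.89 and 5.98 CPM in Ly6c2-negative cells (log2 fold 2.03, SE 0.13, edgeR adjusted p = 4.9e-24). Plac8, a small cysteine-rich protein, had 143, 107, 100 and 95.2 CPM in Ly6c2-positive cells, against 59.9, 49.9, 43.4 and 40.9 CPM in Ly6c2-negative cells (1.32, SE 0.052, edgeR adjusted p = 1.0e-38). Sidt1, a membrane protein of the family that includes the worm RNA transporter SID-1, had 330, 340, 329 and 329 CPM, against 183, 178, 157 and 168 CPM in Ly6c2-negative cells (1.08, SE 0.030, edgeR adjusted p = 5.4e-49). These are 3 of the 10 genes with the largest folds. The others are Eomes, Hopx, Ifitm10 (log2 fold 1.32), the peptidoglycan recognition protein Pglyrp1 (1.25), the cyclic nucleotide phosphodiesterase Pde2a (1.25), Ms4a4c (1.08) and the cysteine protease inhibitor Ctla2a (1.04).

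Ccr9 and Itgae were the lower genes of the homing and adhesion list. Ccr9, the receptor of the intestinal and thymic chemokine CCL25, had 36.2, 33.9, 34.3 and 38.0 CPM in Ly6c2-positive cells of KO-DOX, KO-CTRL, WT-DOX and WT-CTRL, against 110, 94.9, 100 and 98.6 CPM in Ly6c2-negative cells. The highest Ly6c2-positive library stood under the lowest Ly6c2-negative one, and the log2 fold was -1.37 (SE 0.059, edgeR adjusted p = 7.1e-36). Itgae, the CD103 integrin chain that binds epithelial E-cadherin, had 33.6, 38.9, 38.0 and 42.4 CPM in Ly6c2-positive cells, against 79.3, 78.2, 82.3 and 86.5 CPM in Ly6c2-negative cells (-0.97, SE 0.061, edgeR adjusted p = 3.4e-25). Selenop, a secreted selenium carrier, averaged 64.6 ± 7.60 CPM in Ly6c2-positive and 117 ± 7.19 CPM in Ly6c2-negative cells (-0.74). The other genes among the 10 with the lowest folds were the glutamate receptor subunit Gria3 (-1.16), the neutral amino acid transporter Slc6a19 (-0.97), Tmie (-0.83), calponin 3 (Cnn3, -0.62), the TGF-beta co-receptor Tgfbr3 (-0.61), Ankrd40 (-0.54) and the T cell receptor adaptor Trat1 (-0.53). Of 18 homing and adhesion genes 13 were tested, and 4 were called higher and 2 lower, or 1 higher and 4 lower by library totals.

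**Figure D3:**
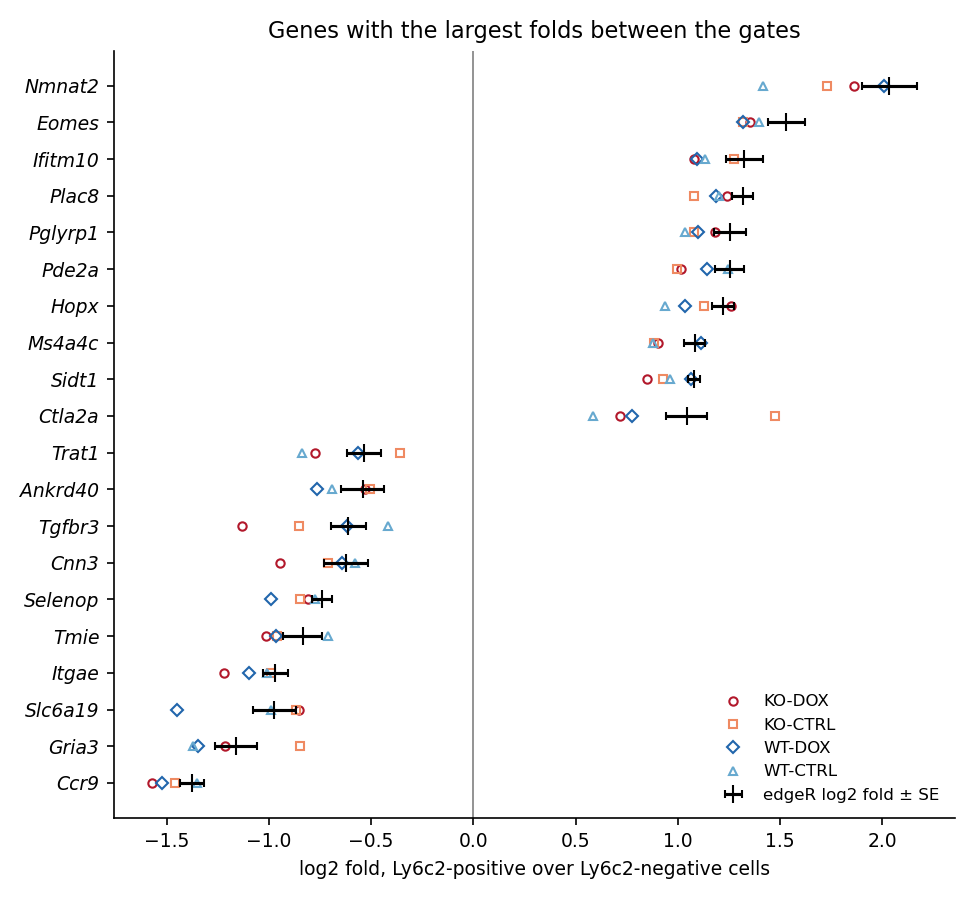
Log2 fold of Ly6c2-positive over Ly6c2-negative cells (x axis) for named genes (y axis): coloured markers are the log2 ratio of CPM plus 1 in each library, without scaling to the median gene, and black crosses are the edgeR fold with its SE. For Nmnat2 (2.03) and Eomes (1.53) every library lies above 0, and for Ccr9 (-1.37) and Itgae (-0.97) every library lies below it, as the rule that named them requires.

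Genes of the naive state moved in both directions. Il7r, the receptor chain for interleukin-7, had 721, 646, 702 and 486 CPM in Ly6c2-positive cells of KO-DOX, KO-CTRL, WT-DOX and WT-CTRL, against 601, 552, 569 and 415 CPM in Ly6c2-negative cells (log2 fold 0.38, SE 0.022, edgeR adjusted p = 5.9e-28), and was higher in each library although the gates overlap. Tcf7, a transcription factor of naive and stem-like T cells, had 519, 554, 538 and 567 CPM, against 661, 660, 667 and 684 CPM in Ly6c2-negative cells (-0.17, SE 0.021, edgeR adjusted p = 1.9e-10), with no overlap. The early-lymphocyte factor Sox4 averaged 9.12 ± 0.920 CPM in Ly6c2-positive and 18.9 ± 4.58 CPM in Ly6c2-negative cells (-0.95). S1pr1 averaged 306 ± 42.6 and 369 ± 40.1 CPM (-0.15, edgeR adjusted p = 7.1e-06), a call lost without the library block (adjusted p = 0.34). Ccr7 averaged 650 ± 64.7 CPM in Ly6c2-positive and 745 ± 59.6 CPM in Ly6c2-negative cells (-0.08, edgeR adjusted p = 0.0036), and this call was lost without WT-DOX (adjusted p = 0.050) and with DESeq2 (adjusted p = 0.14). Of 20 naive and quiescence genes, all tested, 7 were called higher and 7 lower with a median log2 fold of -0.03, or 4 higher and 12 lower by library totals.

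Nkg7, Gzmm and Ifng were among the cytotoxic genes called higher, while perforin was not called. Nkg7 had 699, 676, 686 and 595 CPM in Ly6c2-positive cells of KO-DOX, KO-CTRL, WT-DOX and WT-CTRL, against 537, 492, 518 and 464 CPM in Ly6c2-negative cells (log2 fold 0.52, SE 0.022, edgeR adjusted p = 3.2e-37). Granzyme M (Gzmm) averaged 3.23 ± 0.527 CPM in Ly6c2-positive and 1.10 ± 0.364 CPM in Ly6c2-negative cells (1.68), and interferon gamma (Ifng) 5.15 ± 0.596 and 1.97 ± 0.572 CPM (1.53). Of 14 cytotoxic and chemokine genes 10 were tested, 5 were called higher and none lower, or 5 higher and 1 lower by library totals, with a median log2 fold of 0.52, while DESeq2, which gave Gzmm, Ifng and Ccl4 no adjusted p, called 2 higher. Of the 5 called by edgeR, Gzmm could enter the test only through the Ly6c2-positive cells, which fixed its direction. Perforin (Prf1) was not called, at 32.2, 30.7, 29.2 and 34.0 CPM in Ly6c2-positive cells and 32.4, 33.2, 31.7 and 33.5 CPM in Ly6c2-negative cells. Granzyme K (Gzmk) had 1.61, 0.529, 0.230 and 0.210 CPM in Ly6c2-positive cells, against 4.0, 2.36, 1.84 and 1.47 CPM in Ly6c2-negative cells, with too few counts to be tested. Both were named after their values were seen. Of 14 cytoskeletal and S100 genes of memory cells 12 were tested, and 8 were called higher and none lower, or 6 higher and 2 lower by library totals. Ahnak, a large scaffold protein, averaged 48.2 ± 2.30 CPM in Ly6c2-positive and 39.3 ± 7.35 CPM in Ly6c2-negative cells (0.40). Of 16 killer lectin-like receptor genes besides Klrd1, a single one had enough counts to be tested, Klrc1, which encodes NKG2A. It had 3.49, 0.529, 1.84 and 3.57 CPM in Ly6c2-positive cells, against 1.78, 0.524, 0.756 and 0.855 CPM in Ly6c2-negative cells (log2 fold 1.41). Klrc1 entered the test mainly through the Ly6c2-positive cells, so this fold is a description. In KO-CTRL both gates had nearly the same level. Klrc1 had too few counts to be tested against depth-matched Ly6c2-negative cells, and it was not called by DESeq2 or without the library block.

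In the Ly6 family, 4 of 7 genes were tested, and Ly6a and Ly6e were called higher. Ly6a, which encodes the stem cell antigen Sca-1, had 116, 94.2, 52.9 and 51.9 CPM in Ly6c2-positive cells of KO-DOX, KO-CTRL, WT-DOX and WT-CTRL, against 78.7, 64.9, 33.4 and 36.8 CPM in Ly6c2-negative cells. It was higher in each library (log2 fold 0.68, SE 0.056, edgeR adjusted p = 1.6e-18), but the knockout libraries were above the control genotype in both gates, and without the library block the call was lost (adjusted p = 0.10). Ly6e averaged 494 ± 58.3 CPM in Ly6c2-positive and 451 ± 57.6 CPM in Ly6c2-negative cells (0.26). Ly6c1 was not called, at 5.67 ± 1.10 CPM in Ly6c2-positive and 4.62 ± 1.47 CPM in Ly6c2-negative cells (0.47, edgeR adjusted p = 0.10). By library totals the family had 2 higher and 1 lower.

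Interferon and signalling genes differed in both directions, by small folds. Cells with a UMI of Ifit3, an interferon-induced gene, had been left out of all gates. Of 47 type I interferon response genes 46 were tested, and 9 were called higher and 3 lower with a median log2 fold of 0.07, or 2 higher and 14 lower by library totals. Bst2, or tetherin, averaged 152 ± 11.5 CPM in Ly6c2-positive and 134 ± 12.4 CPM in Ly6c2-negative cells (0.31), and Ifi203, a DNA-sensing family member, 233 ± 9.08 and 203 ± 14.7 CPM (0.32). Of 16 interferon-induced GTPases 12 were tested and Gvin1 alone was called, at 28.4 ± 1.81 CPM in Ly6c2-positive and 20.5 ± 4.04 CPM in Ly6c2-negative cells (0.61), while by library totals 1 was higher and 5 lower. All 15 genes of MHC class I presentation were tested, and 9 were called higher and none lower, or 4 higher and 3 lower by library totals. Psmb10, an immunoproteasome subunit, averaged 180 ± 16.0 and 155 ± 12.9 CPM (0.33). Of 24 cytokine receptor and feedback genes 23 were tested, and 4 were called higher and 3 lower, or 4 higher and 10 lower by library totals. The receptor chains of interferon gamma went apart: Ifngr1 averaged 287 ± 19.8 CPM in Ly6c2-positive and 214 ± 16.2 CPM in Ly6c2-negative cells (0.54), and Ifngr2 117 ± 17.7 and 175 ± 17.1 CPM (-0.45). All 20 genes of the T cell receptor response were tested, and 5 were called higher and 3 lower, or 5 higher and 8 lower by library totals. Cd5, whose level on T cells follows the strength of receptor signals, averaged 109 ± 9.71 CPM in Ly6c2-positive and 86.7 ± 8.41 CPM in Ly6c2-negative cells (0.45).

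Among inhibitory receptors 8 of 10 were tested, with 1 called higher and 2 lower. Tigit averaged 18.9 ± 3.92 CPM in Ly6c2-positive and 13.8 ± 2.84 CPM in Ly6c2-negative cells (log2 fold 0.58), and Ctla4 55.8 ± 6.49 and 83.9 ± 8.83 CPM (-0.45). Of 28 p53 targets 24 were tested, and 4 were called higher and 2 lower, or 1 higher and 6 lower by library totals. Bbc3, which encodes the cell death protein PUMA, had 50.7, 43.6, 58.2 and 27.1 CPM in Ly6c2-positive cells of KO-DOX, KO-CTRL, WT-DOX and WT-CTRL, against 36.3, 26.7, 39.1 and 23.1 CPM in Ly6c2-negative cells (0.64, SE 0.073, edgeR adjusted p = 7.7e-12). Of 16 apoptosis regulators 15 were tested, and 3 were called higher and 4 lower, or 3 higher and 6 lower by library totals. Bcl2l11, or BIM, averaged 52.4 ± 1.72 CPM in Ly6c2-positive and 45.6 ± 6.51 CPM in Ly6c2-negative cells (0.33), and the survival gene Mcl1 254 ± 11.6 and 318 ± 5.72 CPM (-0.20). Of 16 genes of ferroptosis and oxidative defence 12 were tested, and 6 were called higher and 1 lower, or 1 higher and 5 lower by library totals. Slc3a2, a subunit of the cystine transporter, averaged 159 ± 6.29 and 149 ± 5.35 CPM (0.22), and Ncoa4, the receptor for ferritin breakdown, 20.3 ± 2.59 and 30.2 ± 2.16 CPM (-0.46).

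The immediate early and dissociation list had 2 higher and 2 lower of 12 tested, or 0 and 9 by library totals, and 77 T cell receptor V segments tested had 6 higher and 8 lower, or 2 and 18 by library totals. Ribosomal protein genes were higher as a block: 76 of 77 tested were called higher and none lower, with a median log2 fold of 0.28, and they held 30.8%, 29.8%, 30.5% and 29.4% of UMIs in Ly6c2-positive cells of KO-DOX, KO-CTRL, WT-DOX and WT-CTRL, against 27.4%, 26.6%, 27.4% and 26.3% in Ly6c2-negative cells. Of 12 mitochondrially encoded genes tested, 4 were called higher and none lower, or 1 higher and none lower by library totals. Among the lists of other cells, 2 of 5 helper and regulatory CD4 genes and 1 of 3 B and plasma cell genes tested were lower and none higher; the CD4 ones, Ikzf2 and Trat1, are also expressed by CD8 T cells. Of the plasmacytoid dendritic list 4 genes were tested, with 2 higher and 1 lower, of the myeloid list 2 were tested, with 1 higher, or none by library totals, the 1 gamma delta gene tested was not called, and no natural killer gene had enough counts.

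**Figure D4:**
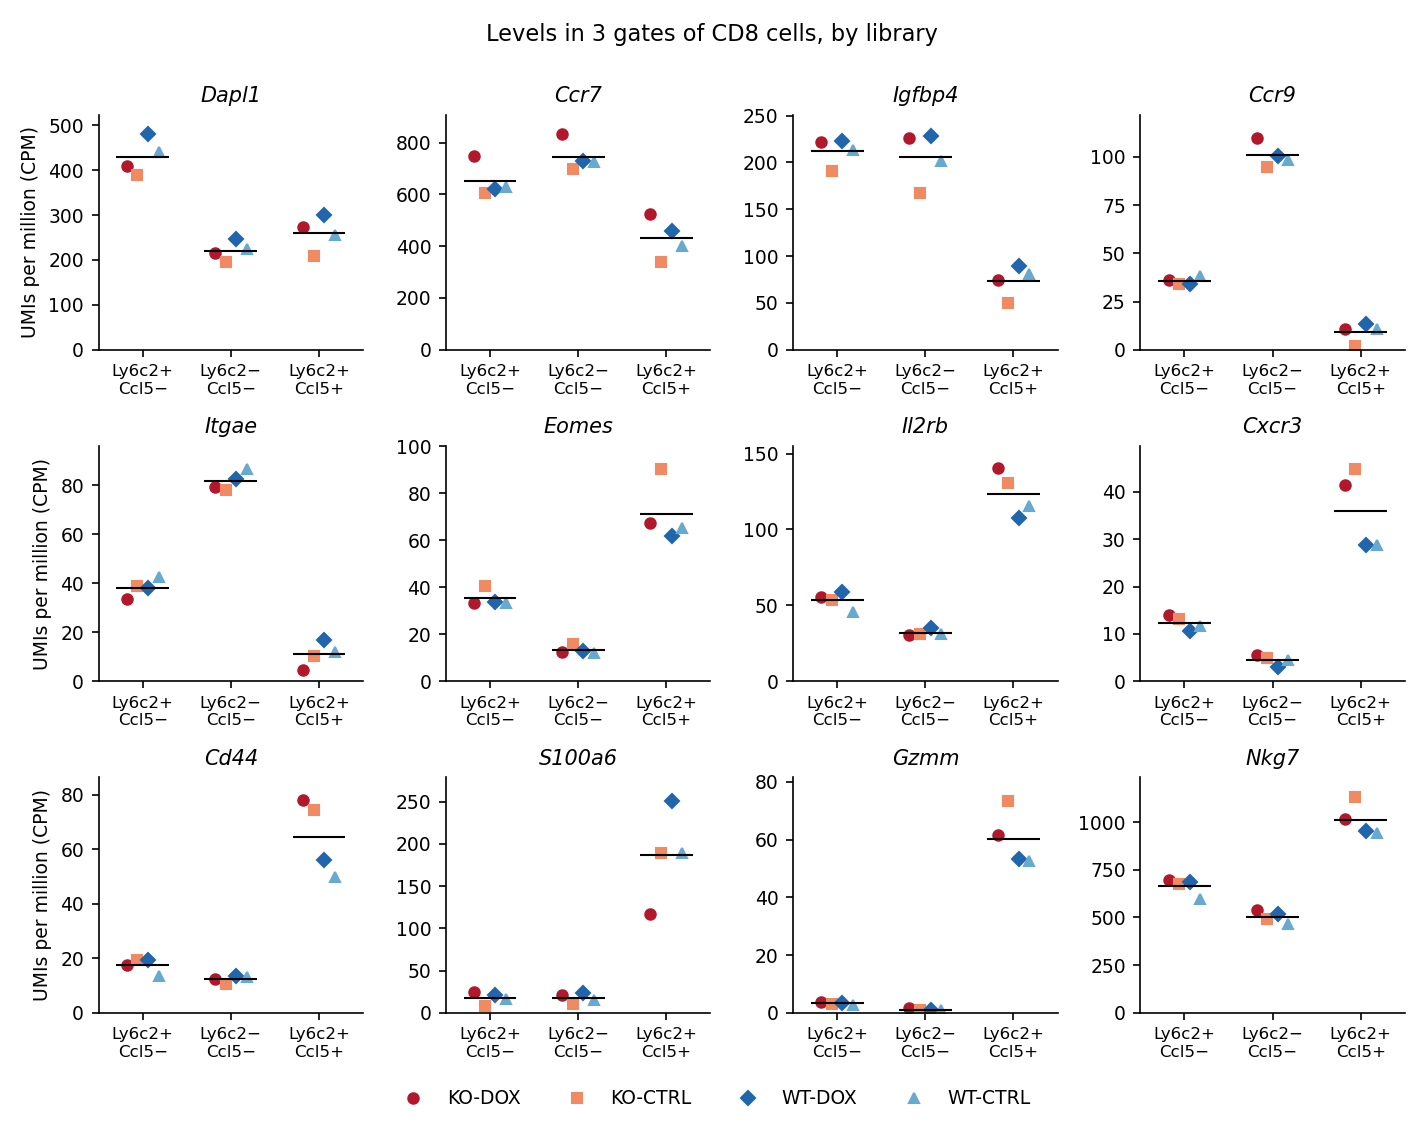
Level (CPM, y axis from 0) of 12 genes in Ly6c2-positive, Ly6c2-negative and Ccl5-positive cells (x axis), with a point for each of the 4 libraries and a line at their mean. Eomes, Il2rb, Cxcr3 and Cd44 in Ly6c2-positive cells lie between both other gates, S100a6 and Gzmm are highest in Ccl5-positive cells, and Ccr9 and Itgae are highest in Ly6c2-negative cells.

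Set against Ccl5-positive cells, the Ly6c2-positive cells without Ccl5 had far fewer transcripts of Gzmm, Gzma, Klrc1 and S100a6 and fewer of Cd44 and Nkg7, and had more of Ccr7, Igfbp4, Ccr9, Itgae and several interferon-induced GTPases. Of 8990 genes tested with edgeR in the same way, 1019 (11.3%) were called, 371 (4.13%) higher and 648 (7.21%) lower in the cells without Ccl5. By library totals the split was 680 higher and 428 lower. The Ccl5-positive sums rest on 184 to 256 cells per library. Genes scarce in the cells without Ccl5 could enter the test only through the Ccl5-positive cells, which fixed their direction, so their folds are a description.

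Gzmm, Gzma and Ccl4 were the cytotoxic and chemokine genes with the largest folds. Gzmm had 3.76, 3.17, 3.45 and 2.52 CPM in Ly6c2-positive cells without Ccl5 of KO-DOX, KO-CTRL, WT-DOX and WT-CTRL, against 61.5, 73.3, 53.3 and 52.5 CPM in Ccl5-positive cells (log2 fold -4.28). Granzyme A (Gzma) had 5.10, 1.32, 2.99 and 2.10 CPM, against 11.8, 81.4, 179 and 148 CPM in Ccl5-positive cells (-5.30), and its level in Ccl5-positive cells of KO-DOX was well under that of the other libraries. The chemokine Ccl4 averaged 7.53 ± 2.02 CPM in cells without Ccl5 and 86.3 ± 65.2 CPM in Ccl5-positive cells (-3.50). Nkg7 was shared more evenly, with 699, 676, 686 and 595 CPM in cells without Ccl5, against 1017, 1131, 954 and 941 CPM in Ccl5-positive cells (-0.69, SE 0.040, edgeR adjusted p = 3.0e-17). Of 14 cytotoxic and chemokine genes 12 were tested, and 10 were called lower and none higher, most of them scarce in the cells without Ccl5. Prf1 was not called, at 32.2, 30.7, 29.2 and 34.0 CPM in cells without Ccl5 and 29.6, 26.5, 37.3 and 41.5 CPM in Ccl5-positive cells.

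Killer lectin-like receptors other than Klrd1 were scarce in the cells without Ccl5, while Klrd1 had 163 to 187 CPM in them and 206 to 243 CPM in Ccl5-positive cells. Klre1, a lectin-like receptor of natural killer cells, had 0, 0, 0 and 0.841 CPM in them, against 24.8, 12.2, 12.7 and 22.9 CPM in Ccl5-positive cells. Klrc1 had 3.49, 0.529, 1.84 and 3.57 CPM, against 37.8, 45.8, 29.6 and 55.0 CPM in Ccl5-positive cells (log2 fold -4.20). Of the 16 receptor genes of the list, 5 had enough counts to be tested, through their level in Ccl5-positive cells, among them Klra6 and Klra7, close copies of each other, whose split is uncertain. Cd163l1, a scavenger receptor of gamma delta T cells, averaged 0.704 ± 0.532 CPM in cells without Ccl5 and 27.1 ± 8.86 CPM in Ccl5-positive cells (-5.25). Of the natural killer and gamma delta lists, Gzma and Cd163l1 were tested, again through their level in Ccl5-positive cells, and of the myeloid list 1 gene, which was lower, but not by library totals. The summed level of 8 gamma delta and innate-like T cell markers was 1.84 to 5.82 CPM in cells without Ccl5 and 22 to 44.9 CPM in Ccl5-positive cells, and the part of such cells in this comparison was not tested.

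Of the memory genes, Cd44, Eomes, Il2rb and Cxcr3 were lower in the cells without Ccl5. Cd44 had 17.5, 19.3, 19.3 and 13.7 CPM in cells without Ccl5, against 78.0, 74.3, 55.9 and 49.9 CPM in Ccl5-positive cells (log2 fold -1.95, SE 0.14, edgeR adjusted p = 1.5e-14). S100a6, a calcium-binding protein of memory cells, had 24.4, 7.93, 21.2 and 16.8 CPM, against 117, 189, 251 and 189 CPM in Ccl5-positive cells (-3.50, SE 0.14, edgeR adjusted p = 1.2e-22). Eomes averaged 35.3 ± 3.62 CPM in cells without Ccl5 and 71.3 ± 13.1 CPM in Ccl5-positive cells (-1.08), Il2rb 53.4 ± 5.63 and 123 ± 14.9 CPM (-1.28), and Cxcr3 12.4 ± 1.51 and 35.9 ± 8.37 CPM (-1.60). Cd44, Eomes, Il2rb and Cxcr3 had been called higher than in Ly6c2-negative cells, so their mean levels in Ly6c2-positive cells without Ccl5 lay between those of both other gates. S100a6 had not, with 21.2, 9.96, 24.0 and 15.1 CPM in Ly6c2-negative cells. Of 22 memory and homeostatic genes 18 were tested, and 13 were called lower and 1 higher, which is Itga4. Of 14 cytoskeletal and S100 genes 12 were tested, and 9 were called lower and none higher. The chemokine receptor Ccr2 (-3.68), S100a4 (-3.66) and the actin regulator Plek (-3.77) were also among the largest falls.

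Part of the naive genes, with Ccr7 and Igfbp4, were higher in the cells without Ccl5. Ccr7 had 746, 606, 619 and 630 CPM in them, against 524, 338, 460 and 399 CPM in Ccl5-positive cells (log2 fold 0.52, SE 0.049, edgeR adjusted p = 4.8e-11). Igfbp4, a secreted binding protein of insulin-like growth factors, had 222, 191, 223 and 213 CPM, against 74.5, 49.9, 88.9 and 81.3 CPM in Ccl5-positive cells (1.43, SE 0.084, edgeR adjusted p = 3.1e-17). S1pr1 averaged 306 ± 42.6 and 220 ± 9.34 CPM (0.38). Of 20 naive and quiescence genes, all tested, 10 were called higher and 3 lower. The lower ones were Il7r, with 721, 646, 702 and 486 CPM in cells without Ccl5 and 841, 719, 732 and 606 CPM in Ccl5-positive cells (-0.27), the kinase gene Txk (-0.44) and Ms4a4b (-0.32). The call of Il7r was lost without the library block. Ccr9 had 36.2, 33.9, 34.3 and 38.0 CPM in cells without Ccl5, against 10.6, 2.04, 13.5 and 11 CPM in Ccl5-positive cells (1.82, SE 0.22, edgeR adjusted p = 2.2e-08), and Itgae 33.6, 38.9, 38.0 and 42.4 CPM, against 4.73, 10.2, 16.9 and 11.9 CPM (1.67). The largest other rises were the urokinase receptor Plaur (1.70), the actin crosslinker Actn2 (1.35) and Mtss1 (1.18).

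Most interferon-induced GTPases tested were higher in the cells without Ccl5. The guanylate-binding protein gene Gbp6 had 91.5, 96.5, 83.3 and 86.2 CPM in them, against 43.8, 29.5, 34.7 and 58.4 CPM in Ccl5-positive cells (log2 fold 1.0, SE 0.12, edgeR adjusted p = 4.2e-08). Gbp2, of the same family, averaged 64.3 ± 10.7 CPM in cells without Ccl5 and 32.0 ± 7.01 CPM in Ccl5-positive cells (0.89). Of 16 interferon-induced GTPases 11 were tested, and 7 were called higher and none lower. Of 47 type I interferon response genes 43 were tested, with 8 higher and 1 lower, and all 15 genes of MHC class I presentation were tested, with 8 higher and none lower. Of 24 cytokine receptor and feedback genes 21 were tested, with 5 higher and 3 lower. Ifngr2 had 136, 93.9, 122 and 117 CPM in cells without Ccl5, against 49.7, 28.5, 69.4 and 52.5 CPM in Ccl5-positive cells (1.12, SE 0.11, edgeR adjusted p = 7.2e-11), while Ifngr1 averaged 287 ± 19.8 and 366 ± 31.3 CPM (-0.44). Ly6a was not called (0.22, edgeR adjusted p = 0.18).

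The remaining lists are given by their counts. The T cell receptor response had 1 gene higher and 6 lower of 17 tested, inhibitory receptors 1 and 2 of 7, homing and adhesion 3 and 1 of 13, p53 targets 1 and 2 of 23, apoptosis regulators 1 and 3 of 14, and immediate early genes 4 and 1 of 12, or 5 and 0 by library totals. Ferroptosis and oxidative defence had 0 genes higher and 1 lower of 12 tested, and V segments 11 and 2 of 57. The Ly6 family had 1 gene lower of 4 tested, Ly6e (log2 fold -0.24), or 1 higher and 1 lower by library totals. Ribosomal protein genes were lower, with 68 of 77 called and a median of -0.16, or 2 higher and 42 lower by library totals, and mitochondrially encoded genes had 2 lower of 11, or none by library totals. Of the plasmacytoid dendritic list 1 gene of 3 was higher, and of 5 CD4 helper and regulatory and 3 B and plasma cell genes tested none was called, with 1 B cell gene higher by library totals.

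Few transcripts of the Ly6c2-positive cells differed past a fixed size between treatments or between genotypes. A gene was past the fold when it had at least 20 CPM in either library, a log2 ratio of CPM plus 1 of at least 0.5 in size and exact 95% Poisson intervals that did not overlap. Eomes, Dapl1, Klrd1, Ctsw, Nkg7 and Il2rb were past the fold in none of the 4 comparisons between libraries. With 1 library a side, treatment and genotype cannot be told apart from differences between the mice or the preparations.

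In the knockout, 54 of 5650 genes (0.956%) were past the fold between KO-DOX and KO-CTRL, 24 higher (0.425%) and 30 lower (0.531%), against 35 of 5820 (0.601%) in the Ly6c2-negative cells of the same libraries. Setbp1, which encodes a binding protein of SET, had 33.8 CPM in KO-DOX (28.2 to 40.3) and 2.38 CPM in KO-CTRL (1.09 to 4.52), a log2 ratio of 3.36. It had 3.91 CPM in WT-DOX and 4.62 CPM in WT-CTRL, so KO-DOX stood apart from all others, and the Ly6c2-negative cells differed in the same direction, with 41.1 CPM in KO-DOX and 4.85 CPM in KO-CTRL. The protease gene Adamts13 had 27.7 CPM in KO-DOX and 8.46 CPM in KO-CTRL (1.60). It was also higher with doxorubicin in the control genotype, with 19.3 CPM in WT-DOX and 7.14 CPM in WT-CTRL. Both of these levels are under the level limit, so Adamts13 could not be past the fold there. Ly6c2-negative cells had 19.8 CPM in WT-DOX and 7.57 CPM in WT-CTRL. S100a6 had 24.4 CPM in KO-DOX and 7.93 CPM in KO-CTRL (1.51), and Hist1h2ae, a histone H2A gene, 31.7 and 14.0 CPM (1.12). The lectin gene Lgals1 had 73.0 and 38.4 CPM (0.91). When cells with Mki67, Ifit3, Fosb or Pdcd1 UMIs were kept, the log2 ratio of S100a6 was 0.18, of Hist1h2ae -0.10 and of Lgals1 -0.03, so these 3 rested on that condition of the gate. Mitochondrially encoded transcripts were lower: 8 of 11 tested were past the fold, with a median log2 ratio of -0.64, against -0.0032 over all genes tested. Among them mt-Nd4 had 28.7 CPM in KO-DOX and 58.7 CPM in KO-CTRL (-1.01), mt-Nd1 29.0 and 53.4 CPM (-0.86) and mt-Atp6 49.4 and 85.7 CPM (-0.78), and all 3 were also lower in Ly6c2-negative cells. Mitochondrial UMIs were scarce in every library, with a median of 0.0311% of a cell's UMIs in KO-DOX and 0.0601% in KO-CTRL. Pmpca (-0.83) and Fbxl14 (-0.78) completed the largest falls.

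In the control genotype, 94 of 5681 genes (1.65%) were past the fold between WT-DOX and WT-CTRL, 30 higher (0.528%) and 64 lower (1.13%), against 57 of 5873 (0.971%) in Ly6c2-negative cells, 39 of them lower (0.664%). Zbed5 had 248 CPM in WT-DOX (234 to 264) and 0.841 CPM in WT-CTRL (0.229 to 2.15), with 0.537 CPM in KO-DOX and 1.06 CPM in KO-CTRL, and Ly6c2-negative cells had the same split, with 230 CPM in WT-DOX and 0.855 CPM in WT-CTRL. WT-DOX was thus the one library that had it, and KO-DOX, also treated with doxorubicin, did not. Bbc3 had 58.2 CPM in WT-DOX (51.3 to 65.9) and 27.1 CPM in WT-CTRL (22.6 to 32.2), a log2 ratio of 1.08. In the knockout it had 50.7 CPM in KO-DOX and 43.6 CPM in KO-CTRL (0.21), which was not past the fold. Of 15 p53 targets tested Bbc3 and the stress gene Ddit4 were past the fold, Ddit4 with 24.4 CPM in WT-DOX and 13.0 CPM in WT-CTRL (0.86). In the knockout Ddit4 had 26.3 CPM in KO-DOX and 20.6 CPM in KO-CTRL (0.34), not past the fold. In Ly6c2-negative cells Ddit4 was past the fold in both genotypes, at 0.91 in the control genotype and 0.63 in the knockout. Bbc3 had ratios of 0.74 and 0.43 in those cells, past the fold in the control genotype alone. Il7r had 702 CPM in WT-DOX (678 to 728) and 486 CPM in WT-CTRL (467 to 507), a log2 ratio of 0.53, and in Ly6c2-negative cells 569 and 415 CPM (0.45). The chemokine receptor Cxcr4 had 52.0 CPM in WT-DOX and 29.0 CPM in WT-CTRL (0.82). S1pr1 had 245 CPM in WT-DOX (231 to 261) and 344 CPM in WT-CTRL (328 to 361), a log2 ratio of -0.49 just under the limit. The immediate early genes Ier2 (626 CPM in WT-DOX and 432 CPM in WT-CTRL) and Zfp36 (458 and 320 CPM) were higher in WT-DOX.

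Type I interferon response genes had a median log2 ratio of -0.20 between WT-DOX and WT-CTRL over 33 genes tested, against -0.02 over all genes. Only 1 of them, the helicase Ddx60, was past the fold, at 23.5 CPM in WT-DOX and 42.0 CPM in WT-CTRL (-0.81). The gate left out cells with a UMI of Ifit3, itself interferon-induced. Before the exclusions, 47 of 1341 Ly6c2-positive cells had one in WT-DOX and 101 of 1505 in WT-CTRL. The effect of this on the ratios was not tested. The GTPase Irgm2 had 19.3 CPM in WT-DOX and 40.1 CPM in WT-CTRL (-1.02). The other largest falls were Rps27rt (-1.02), Ccnb1ip1 (-1.01), the cholesterol exporter Abca1 (-0.89) and Heatr5b (-0.88), and the other largest rises Ehbp1 (1.73), 9930111J21Rik2 (1.53) and Cdk5rap1 (1.06). The doxorubicin comparisons of both genotypes had 5 genes past the fold in the same direction, which is 5.32% of the list in the control genotype and 9.26% of that in the knockout, and 1 in opposite directions. Of the 5, a V segment and a predicted gene are not named, and the others were named after their values were seen. Cdk5rap1 was higher with doxorubicin, with 35.4 CPM (KO-DOX) against 22.5 CPM (KO-CTRL), and 28.3 CPM (WT-DOX) against 13.0 CPM (WT-CTRL). The cytokine receptor Il31ra was lower, with 108 CPM (KO-DOX) against 161 CPM (KO-CTRL), and 86.8 CPM (WT-DOX) against 133 CPM (WT-CTRL), and so was Brap, with log2 ratios of -0.51 in both genotypes.

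**Figure D5:**
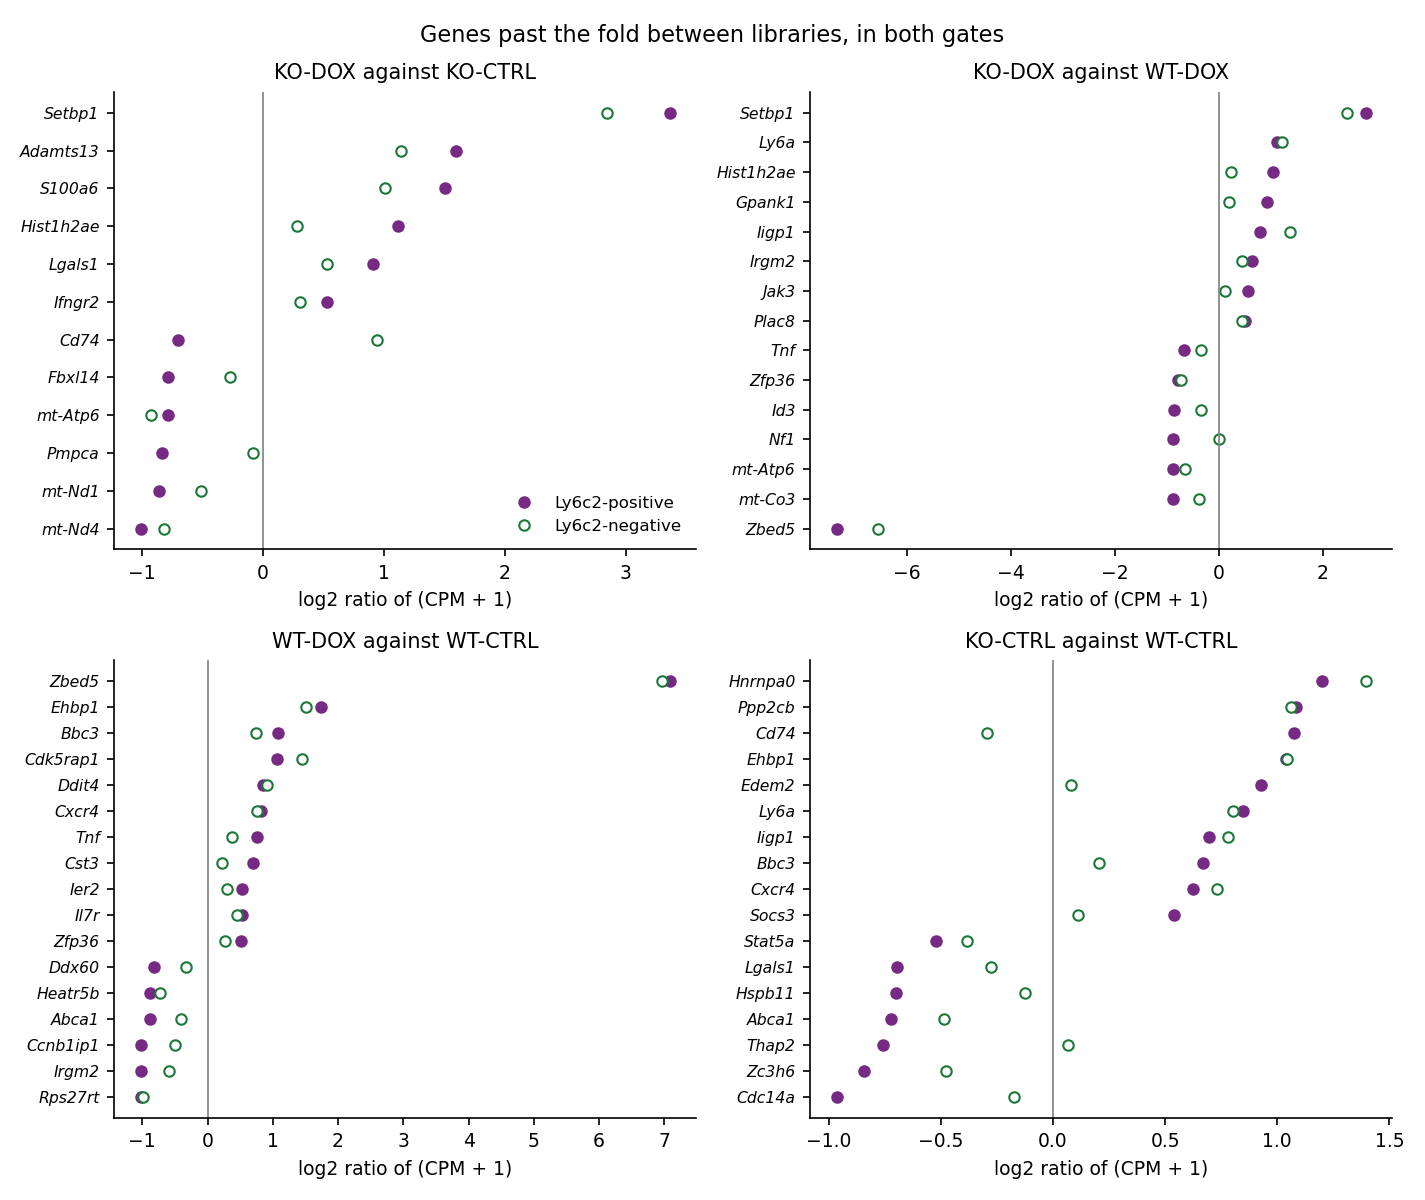
Log2 ratio of CPM plus 1 (x axis) of named genes (y axis) in 4 comparisons of libraries, 1 panel each, with filled markers for Ly6c2-positive and open markers for Ly6c2-negative cells. Both kinds of cell have the high ratios of Setbp1 in KO-DOX and of Ly6a in the knockout libraries. In Ly6c2-positive cells Bbc3 is past the fold in WT-DOX against WT-CTRL (1.08) but not in KO-DOX against KO-CTRL (0.21). Its ratios in Ly6c2-negative cells are 0.74 and 0.43.

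Between genotypes, Ly6a was higher in the knockout and past the fold under both treatments, though not the largest difference under either. It had 116 CPM in KO-DOX (105 to 127) and 52.9 CPM in WT-DOX (46.3 to 60.2), a log2 ratio of 1.11, and 94.2 CPM in KO-CTRL (84.6 to 104) and 51.9 CPM in WT-CTRL (45.6 to 58.8), a ratio of 0.85. Ly6c2-negative cells had 78.7 CPM (KO-DOX) against 33.4 CPM (WT-DOX), and 64.9 CPM (KO-CTRL) against 36.8 CPM (WT-CTRL), so the difference was not one of the Ly6c2-positive cells alone. Under doxorubicin, 55 of 5653 genes (0.973%) were past the fold between KO-DOX and WT-DOX, 20 higher (0.354%) and 35 lower (0.619%), against 36 of 5827 (0.618%) in Ly6c2-negative cells, 14 of them higher (0.24%). The interferon-induced GTPases Iigp1 (23.1 CPM in KO-DOX and 12.9 CPM in WT-DOX, 0.79) and Irgm2 (30.9 and 19.3 CPM, 0.65), the kinase gene Jak3 (37.3 and 24.9 CPM, 0.57) and Plac8 (143 and 100 CPM, 0.51) were higher in KO-DOX. Setbp1 (2.83), Hist1h2ae (1.05) and Gpank1 (0.93) were also among the largest rises. Type I interferon response genes had a median log2 ratio of 0.15 over 34 genes tested, with none past the fold. Before the exclusions, 73 of 1239 Ly6c2-positive cells had an Ifit3 UMI in KO-DOX and 47 of 1341 in WT-DOX. The mitochondrially encoded list was lower in KO-DOX, with 10 of 11 past the fold with a median of -0.71, among them mt-Co3 (30.1 CPM in KO-DOX and 56.4 CPM in WT-DOX, -0.89). Zbed5 (-7.34), 9930111J21Rik2 (-1.41), mt-Atp6 (-0.88) and Nf1 (-0.87) were the other largest falls. Zfp36, which destabilises cytokine messenger RNA, had 266 CPM in KO-DOX and 458 CPM in WT-DOX (-0.78), and its target Tnf 16.9 and 27.4 CPM (-0.66). Id3, an inhibitor of E proteins, had 17.2 and 32.0 CPM (-0.86).

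Under the control treatment, 53 of 5670 genes (0.935%) were past the fold between KO-CTRL and WT-CTRL, 24 higher (0.423%) and 29 lower (0.511%), against 24 of 5845 (0.411%) in Ly6c2-negative cells. Hnrnpa0, an RNA-binding protein, had 117 CPM in KO-CTRL and 50.2 CPM in WT-CTRL (log2 ratio 1.20), with 146 and 55.1 CPM in Ly6c2-negative cells. The phosphatase gene Ppp2cb had 38.1 CPM in KO-CTRL and 17.4 CPM in WT-CTRL (1.08), Ehbp1 44.7 and 21.2 CPM (1.04) and Edem2 25.7 and 13.0 CPM (0.93). Their log2 ratios in Ly6c2-negative cells were 1.06, 1.04 and 0.08, so Edem2 hardly differed there. Cd74, the invariant chain of MHC class II and a B cell marker, had 29.9 CPM in KO-CTRL and 13.7 CPM in WT-CTRL (1.08), but 19.9 and 24.7 CPM in Ly6c2-negative cells. With cells of Mki67, Ifit3, Fosb or Pdcd1 kept, the log2 ratio of Cd74 was -0.11, so its direction rested on that condition. Bbc3 had 43.6 CPM in KO-CTRL and 27.1 CPM in WT-CTRL (0.67), Cxcr4 45.2 and 29.0 CPM (0.62), Iigp1 26.4 and 16.0 CPM (0.69) and the cytokine feedback gene Socs3 57.9 and 39.5 CPM (0.54). In Ly6c2-negative cells Cxcr4 (0.73) and Iigp1 (0.78) were also past the fold, and Bbc3 (0.20) and Socs3 (0.11) were not. WT-CTRL thus had the lowest Bbc3, Cxcr4 and Il7r of the 4 libraries, and the knockout without doxorubicin lay above it in each. Cdc14a (-0.96), Zc3h6 (-0.84), Thap2 (-0.76), Abca1 (-0.72) and Hspb11 (-0.70) were the largest falls, and Stat5a (-0.52), a transducer of interleukin-2 and interleukin-7 signals, was also lower. None of these was past the fold in Ly6c2-negative cells, where the ratios were -0.17, -0.48, 0.07, -0.49, -0.13 and -0.38 in the same order.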

How the data were processed

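The deposited values are UMI counts per gene and barcode, per the values of the deposited matrices. Reads were placed on mm10, per the submitters' processing notes; no aligner or cell caller is named in the labels. Members, gene lists and tests were chosen with earlier results of these data known. Counts were summed per library and gate and tested with edgeR 4.0.16 (R 4.3.3, quasi-likelihood, TMM, filterByExpr, library block, Benjamini-Hochberg), leaving the 10 gate genes out of the tests, and tested on simulated data. Both gates come from the same library, and their deviations from the gate means correlated at 0.18 to 0.41 within a library, against at most -0.0049 across libraries (7787 genes). Shares have exact Clopper-Pearson intervals, and sums exact Poisson ones. Intervals used scipy 1.17.1, tables pandas 2.3.3 and numpy 2.4.6, sequences Biopython 1.88 and plots matplotlib 3.10.9 (Python 3.11.15). No doublet caller was run. Cells with Cd4 or Cd79a UMIs were gated out, and an alternative left out barcodes above the 98th UMI percentile. Gene identifiers matched GENCODE for 32158 of 32285.

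The genes named were the 10 (Ly6c2-negative) or 8 (Ccl5-positive) with the largest fold in each direction among those called with at least 20 CPM and the same direction in all 4 libraries, the 5 largest in each library comparison, up to 3 per direction from 25 lists, and a fixed set. Some results that this rule names are not reported here. Predicted genes and V segments are counted only, and so are list members that lost their call when 1 library was left out, apart from Ccr7. The alternatives were 2 Ly6c2 UMIs, Cd8a and Cd8b1 each present, 800 genes and 5% mitochondrial UMIs, no exclusion of the 4 state genes, no shared barcodes, depth-matched cells, DESeq2 1.42.0 and its size factors, no low-count filter, no library block, each library left out, and pseudocounts, level limits, scaling and cell weighting for library comparisons. Library totals as scaling and the test of the gate difference between treatments and genotypes were added after the data were seen.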

Additional observations from a re-analysis of the deposited data

Results flagged for a closer look

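Whether the difference between Ly6c2-positive and Ly6c2-negative cells itself differed between treatments or genotypes was tested after the data were seen, with edgeR's quasi-likelihood test over 10189 genes. It called 6 genes by treatment and 8 by genotype, with an unadjusted p under 0.05 for 566 genes (5.56%) and 494 genes (4.85%), while DESeq2 called 0 for both. Each side of the test pools libraries of unlike groups, which are not replicates of a treatment or genotype. The p-values therefore cannot tell such an effect from a single library that stands apart. T cell receptor V segments among them are counted and not named. Values are the log2 fold of Ly6c2-positive over Ly6c2-negative cells, doxorubicin minus control treatment or knockout minus control genotype. Levels are in CPM in the order KO-DOX, KO-CTRL, WT-DOX and WT-CTRL.

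By treatment, Mul1, a mitochondrial ubiquitin ligase, differed by -1.20 (edgeR adjusted p = 0.020), with 8.05, 15.9, 7.60 and 11.4 in Ly6c2-positive cells against 15.1, 10.4, 13.6 and 10.8 in Ly6c2-negative cells. Hdac9 differed by 4.96 by treatment (edgeR adjusted p = 2.7e-08) and by -2.46 by genotype (0.0034), with 2.69, 0.529, 13.6 and 0.630 against 3.85, 3.67, 0.756 and 5.25 in Ly6c2-negative cells. Cdk8 differed by 0.38 by treatment (edgeR adjusted p = 1.6e-09) and by -0.28 by genotype (2.8e-11), with 1094, 1171, 1293 and 1171 against 1149, 1329, 935 and 1279 in Ly6c2-negative cells. For both Hdac9 and Cdk8, WT-DOX was the only library with more in Ly6c2-positive than in Ly6c2-negative cells. Lars2 differed by 0.24 by treatment (edgeR adjusted p = 0.0019), with 450, 580, 503 and 478 against 450, 625, 442 and 525 in Ly6c2-negative cells. By genotype, the chemokine Xcl1 differed by -2.02 (edgeR adjusted p = 1.1e-09), with 6.18, 10.3, 16.8 and 16.6 against 24.3, 4.19, 4.54 and 8.92 in Ly6c2-negative cells. KO-DOX alone had less Xcl1 in Ly6c2-positive cells, while KO-CTRL had more, as both libraries of the control genotype did. Cmss1 differed by 0.28 (edgeR adjusted p = 1.1e-24), with 6095, 7856, 5585 and 5105 against 5743, 7609, 6926 and 5429 in Ly6c2-negative cells. The mitochondrial gene mt-Cytb differed by -0.30 (edgeR adjusted p = 0.034), with 128, 187, 210 and 214 against 144, 234, 204 and 208 in Ly6c2-negative cells.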

How the results depend on the processing

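Against Ly6c2-negative cells 1977 genes were called, 3188 when cells with Mki67, Ifit3, Fosb or Pdcd1 UMIs were kept, 636 with DESeq2, which gave no adjusted p for 3556, 818 without the replicate block, 3370 by library totals and 1516 to 1630 with 1 library left out. Against Ccl5-positive cells 1019 were called, 2041 with those cells kept, 411 with DESeq2, 715 without the replicate block, 1108 by library totals and 702 to 894 with 1 library left out. Genes past the fold between KO-DOX and KO-CTRL numbered 54, 106 with those cells kept and 18 at 50 CPM or more. The counts were 94, 143 and 46 between WT-DOX and WT-CTRL, 55, 290 and 17 between KO-DOX and WT-DOX, and 53, 92 and 10 between KO-CTRL and WT-CTRL, where a pseudocount of 5 CPM left 35. Shares in KO-DOX, KO-CTRL, WT-DOX and WT-CTRL were 22.9%, 20.8%, 19.6% and 22% at 2 Ly6c2 UMIs, 23%, 21.2%, 20.2% and 22.9% thinned, and 33.2% in KO-DOX and 31.1% in KO-CTRL with those cells kept. With those cells kept the log2 fold turned for Hspa8 (0.0025) and Cst3 (-0.080) against Ly6c2-negative cells, Ly6a against Ccl5-positive cells (-0.49), Hist1h2ae (-0.10), Lgals1 (-0.028) and Cd74 (0.99) between KO-DOX and KO-CTRL, and Cd74 (-0.11) and Lgals1 (0.50) between KO-CTRL and WT-CTRL. It also turned for Selplg by library totals (-0.0081), and against Ccl5-positive cells for Ddit4 without KO-CTRL (-0.032; range with 1 library left out -0.032 to 0.54). The cause was not tested. Of all named values under the alternatives, 4239 were as reported, 10 turned, 89 moved, 321 lost and 12 gained a call. Depth limits genes under 20 CPM, and the Ccl5-positive sums are the smallest.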
